A study of Mus musculus with 8 samples.

Results

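The proteasome genes of C2C12 cells, an established line of mouse muscle precursors, were examined after knockdown of DOR, the protein encoded by Trp53inp2. The members were all genes whose only annotated symbol is Psma, Psmb, Psmc or Psmd followed by a number, without the inducible catalytic subunits Psmb8 and Psmb9. This gave 37 of the 18193 genes named on the array, of which 17 encode the core particle (Psma and Psmb) and 20 the regulatory particle and its helpers (Psmc and Psmd). The rule itself uses symbols and no measured value. All cultures of both groups had been transduced with lentivirus at an moi of 100, expanded for 5 to 7 days and sorted for GFP, to 93 to 99% positive cells. The 4 DOR siRNA cultures carried siRNA against DOR and the 4 scrambled cultures carried a scrambled RNA. By their labels all had spent 4 days in 5% horse serum, the condition under which these cells form myotubes. Other labels call the same samples confluent myoblasts, so the stage at harvest is not settled by them. The cultures are named biological replicates 1 to 4 in each group without a statement of how they were derived, so the p-values measure the spread between these cultures only.

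The proteasome is the large protease that degrades proteins tagged with ubiquitin. Its barrel-shaped core has outer rings of alpha subunits, which gate the entrance, and inner rings of beta subunits, 3 of which carry the active sites. A regulatory particle caps the barrel: its base holds a ring of 6 ATPases that unfold the substrate, and its lid removes the ubiquitin chain. In muscle the proteasome breaks down myofibrillar proteins during atrophy and removes regulators of the cell cycle and of myogenesis during differentiation. DOR is known as a nuclear receptor cofactor and as a protein of autophagy, the other main route of protein breakdown.

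Values are the authors' RMA values, log2 expression per probe set, in which a difference of 1 is a doubling. RMA gives the arrays one common distribution, so that a change shared by all transcripts would not show. Array medians lay between 6.14 and 6.20 log2 units and correlations between arrays between 0.988 and 0.997, with the number of arrays limiting the precision. The targeted gene, Trp53inp2, checked the labels: its brighter probe set differed by -1.83 ± 0.17 (limma SE; limma adjusted p = 0.00087), with no overlap between the groups. Its other, dimmer probe set differed by 0.14 ± 0.08 (limma adjusted p = 0.52), and the mean over both by -0.85. Of 8 myogenic markers all lay above the median of all values (6.18) in both groups, between 8.46 and 14.77. Of the 10 markers of leukocytes, endothelium, adipocytes and epithelium that were measured, 8 lay under that median in at least one group. The exceptions were Epcam (7.40 to 7.90) and Adgre1 (6.08 to 6.45). In bulk RNA, fewer cells of one kind and less RNA per cell cannot be told apart.

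No proteasome gene passed the test, by limma's moderated test with Benjamini-Hochberg adjustment over all 45037 probe sets and a threshold of 0.05. Among all genes, each taken by its brightest probe set, 4.56% were called, 1.45% lower and 3.11% higher. Among the 37 members, 0 were called in either direction. The smallest adjusted p was 0.077, for Psmc5, an ATPase of the base. At an unadjusted p under 0.05, 5 members were lower and 0 higher, against 6.55% of all genes lower and 11.5% higher. The fit that pairs cultures by replicate number called 8.25% of all genes and, again, 0 members, with the smallest adjusted p at 0.053 for Psmc5. That fit called 2827 probe sets in all, where the unpaired one called 1452.

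The differences were small, and more of them were below 0 than above it. Over the 37 members the median difference, DOR siRNA minus scrambled, was -0.11 log2 units, where the median of all genes was 0.015. It was below 0 for 28 of the 37 (75.7%), against 45.1% of all genes and 45.2% of genes at or above the median level. The cultures were not alike in this. In the pair numbered 1 only 15 of 37 members were lower in the knockdown, with a median of 0.031. In pairs 2, 3 and 4 there were 32, 31 and 33, with medians of -0.15, -0.12 and -0.14. Pairs here follow the replicate numbers, and correlations between arrays do not settle the pairing of numbers 1 and 2. Single members ranged from -0.28 (Psmc5) to 0.13 (Psmd5). Their 95% intervals reached from -0.44 at the lowest to 0.36 at the highest, so that no member's interval held a change of 1 log2 unit in either direction. The groups did not overlap for 4 members, all lower in the knockdown (Psmb11, Psmc3, Psmc5 and Psmd6), or 10.8% of them; 4.13% of all genes, and 5.71% of those at or above the median level, were lower in this way. Of these 4 members Psmb11 lies under the median level, so the 10.8% is not restricted to genes at or above it. In the other direction there were 0 members, against 8.10% of all genes.

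**Figure D1:**
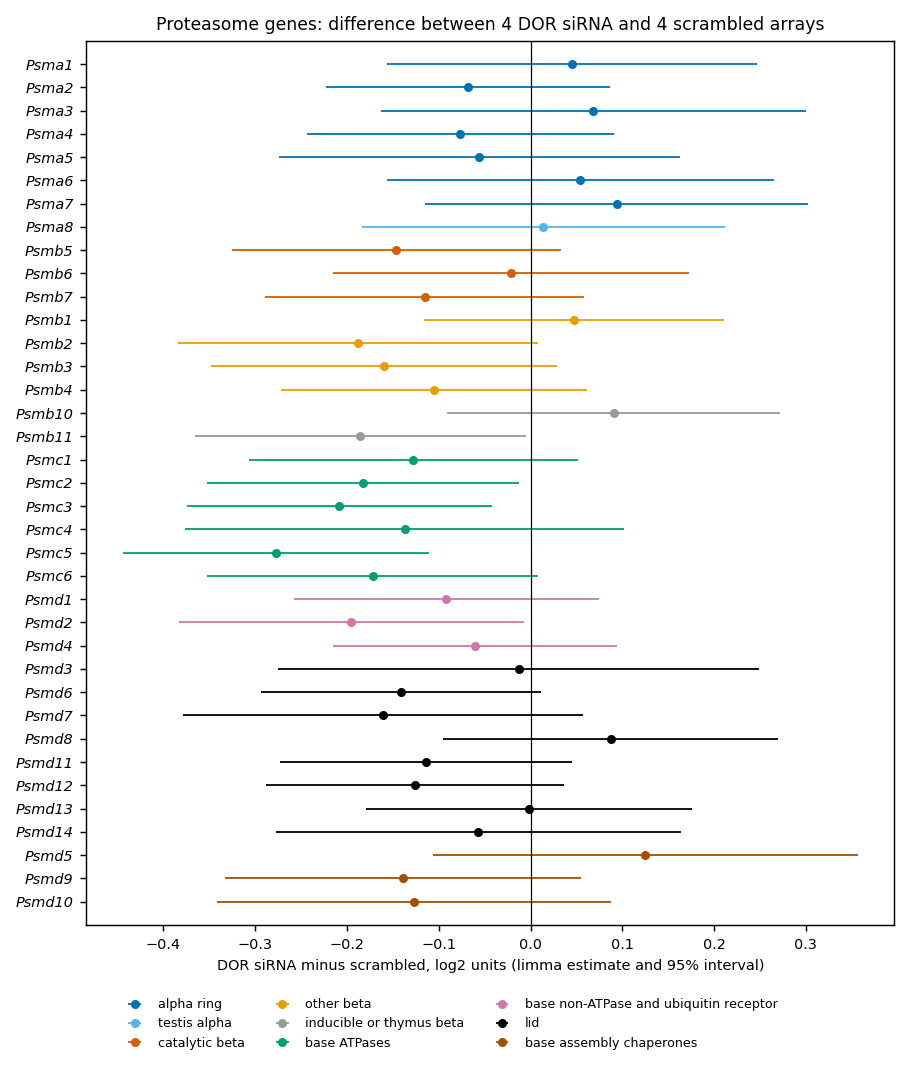
Difference between the groups for each of the 37 proteasome genes (points; log2 units, DOR siRNA minus scrambled, n = 4 arrays each) with its 95% limma interval (bars), coloured by role in the particle. All 6 ATPases (Psmc1 to Psmc6) lie left of 0, between -0.28 and -0.13, while the 7 alpha ring genes lie on both sides of it, between -0.076 and 0.094.

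With all 8 arrays, the core and the regulatory particle differed in how evenly their members leaned. In the core 10 of 17 members were below 0, with a median of -0.056; in the regulatory particle 18 of 20 were below 0, with a median of -0.13. Counted over the 4 same-numbered pairs of cultures, 10 of 20 regulatory members and 3 of 17 core members were lower in the knockdown in every pair, against 12.5% of all genes. As a mean deviation of the genes from their own 8-array means, the core stood at -0.049, 0.071, -0.002 and 0.063 log2 units on scrambled arrays 1 to 4 and at 0.099, -0.057, -0.093 and -0.033 on DOR siRNA arrays 1 to 4. The regulatory particle stood at 0.044, 0.096, 0.006 and 0.066 on the scrambled arrays and at 0.025, -0.064, -0.094 and -0.079 on the knockdown arrays. The groups overlapped for both particles. These counts and means describe members whose values share the same 8 arrays, and the difference between the particles was not tested. Without both cultures numbered 1, a choice made after seeing the data, 15 of 17 core and 17 of 20 regulatory members were below 0. The contrast in these counts thus depended on those cultures.

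The ATPases of the base had the lowest median difference among the role groups of 3 or more genes. These 6 proteins, Psmc1 to Psmc6, form the ring that unfolds substrates and opens the gate of the core. All 6 were lower in the knockdown on average, with a median of -0.18 log2 units, 3 of them at an unadjusted p under 0.05, and 5 were lower in each of the 4 pairs. The mean deviation of the 6 genes from their own 8-array means was 0.11, 0.17, 0.05 and 0.04 log2 units on scrambled arrays 1 to 4. On DOR siRNA arrays 1 to 4 it was 0.00, -0.04, -0.17 and -0.16. Every scrambled array thus lay above every knockdown array, although the gap between the lowest scrambled and the highest knockdown value was narrow. The same means overlapped between the groups for the alpha ring, the catalytic and other beta subunits, Psmd1 with Psmd2 and Psmd4, the lid and the chaperones. For Psmd1 with Psmd2 and Psmd4 the overlap was slight, with the lowest scrambled array at 0.018 and the highest knockdown array at 0.019. Their same-numbered pairs differed by -0.082, -0.119, -0.12 and -0.143.

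Psmc5 had the largest difference of all members by the brightest probe set. It read 11.75, 11.82, 11.66 and 11.63 log2 units on the scrambled arrays and 11.50, 11.50, 11.38 and 11.37 on the DOR siRNA arrays. The groups did not overlap, and the 4 paired differences lay close together, from -0.32 to -0.25. The mean was 11.71 ± 0.08 against 11.44 ± 0.07 (SD, n = 4 each), a 1.21-fold lower level (-0.28 ± 0.08, limma SE; limma adjusted p = 0.077; exact two-sided permutation p = 0.029, the smallest that 4 against 4 allows). It passed the threshold with arrays weighted by quality (-0.29, limma adjusted p = 0.036) and in the fit where each gene was the mean of its probe sets (-0.28, limma adjusted p = 0.037). Psmc5 has 1 probe set, and in the latter fit its SE was 0.066, where it was 0.076 over all probe sets. The latter fit also adjusted p over 18193 genes, where the main fit adjusted over 45037 probe sets.

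Psmc3, another ATPase of the ring, was the other one without overlap by the brightest probe set. It read 12.85, 12.92, 12.86 and 12.85 on the scrambled arrays and 12.81, 12.67, 12.59 and 12.58 on the knockdown arrays. The scrambled cultures were nearly alike, and DOR siRNA 1 lay nearest to them. The difference was -0.21 ± 0.08 (limma adjusted p = 0.19, exact permutation p = 0.029).

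Psmc2 read 12.27, 12.27, 12.25 and 12.10 on the scrambled arrays against 12.09, 12.12, 12.00 and 11.95 on the knockdown arrays. Scrambled 4 stood apart at the low end and fell within the knockdown range, so the groups overlapped. The difference was -0.18 ± 0.08 (limma adjusted p = 0.28, exact permutation p = 0.057). Its brightest probe set carries the suffix of sets that may bind related transcripts, but the other 2 probe sets of Psmc2 gave -0.19 and -0.18. In both of these the groups did not overlap.

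Psmc6 differed more by its dimmer probe sets than by its brightest. The brightest read 12.02, 12.03, 12.06 and 12.17 on the scrambled arrays and 12.06, 11.82, 11.79 and 11.91 on the knockdown arrays, with DOR siRNA 1 inside the scrambled range (difference -0.17 ± 0.08, limma adjusted p = 0.36). The other 2 probe sets differed by -0.34 ± 0.10 (limma adjusted p = 0.10) and -0.37 ± 0.11 (0.099), the largest differences among the 75 probe sets of all members. The groups overlapped in the former and not in the latter. Psmc4 showed the same order, with -0.14 ± 0.11 by the brightest probe set and -0.20 ± 0.09 by the other. Psmc1 differed by -0.13 ± 0.08, and its other probe set by -0.02.

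**Figure D2:**
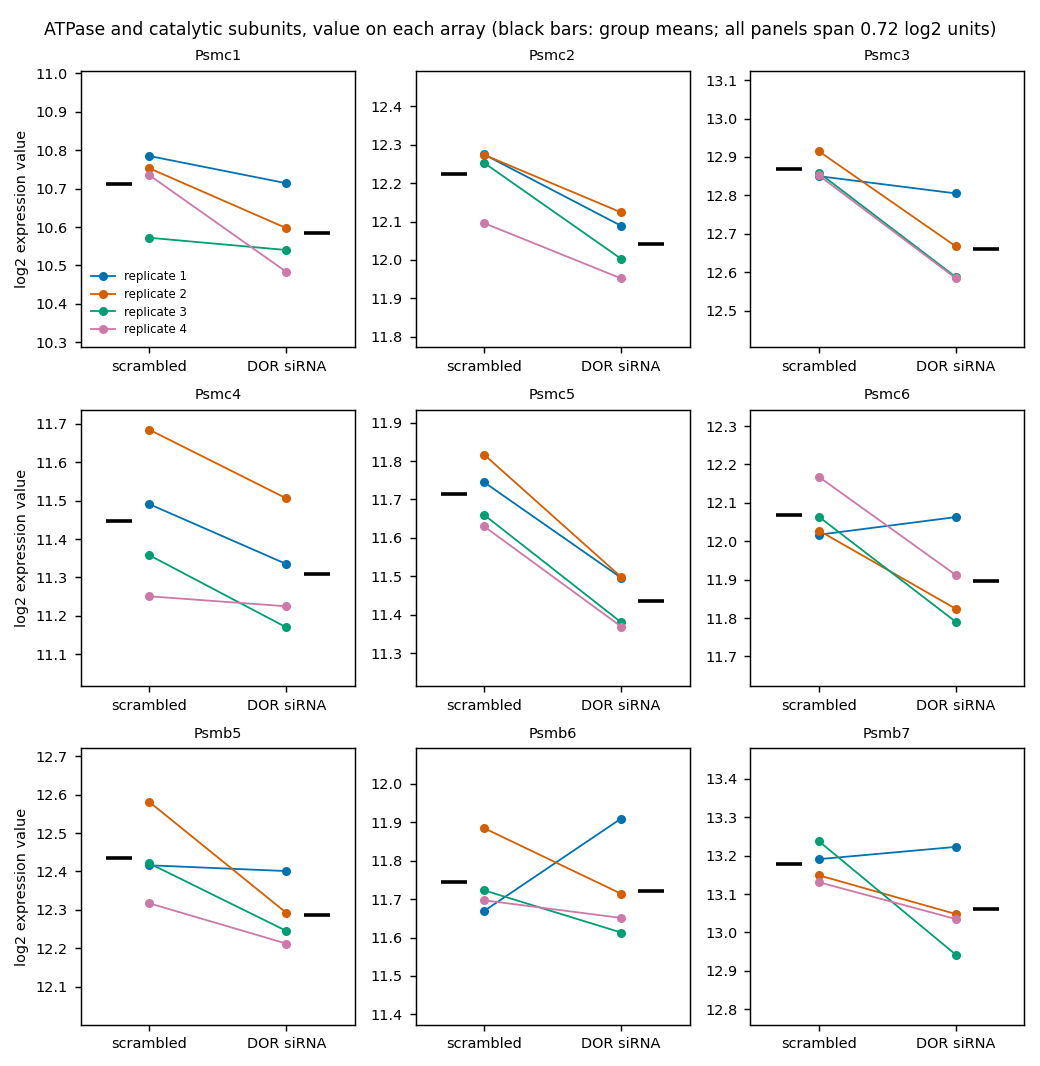
Log2 expression value of the 6 ATPase genes (Psmc1 to Psmc6) and the 3 catalytic beta genes (Psmb5, Psmb6, Psmb7) on each of the 8 arrays; lines join cultures with the same replicate number and black bars are group means (n = 4). Every line of Psmc5 runs down, by 0.25 to 0.32 log2 units, and so does every line of Psmb5, by less in each. In Psmc6, Psmb6 and Psmb7 the line of replicate 1 runs up.

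The remaining base subunits were also lower on average. Psmd2, a scaffold that receives ubiquitin-binding shuttle proteins, read 12.03, 12.08, 11.89 and 11.84 on the scrambled arrays and 11.79, 11.90, 11.72 and 11.65 on the knockdown arrays. Each knockdown culture lay under its same-numbered control, by 0.17 to 0.23, but the ranges overlapped at DOR siRNA 2 (-0.20 ± 0.09, limma adjusted p = 0.30, exact permutation p = 0.086). Psmd1, the other large scaffold, differed by -0.09 ± 0.08. Psmd4, the ubiquitin receptor between base and lid, differed by -0.06 ± 0.07, and one of its dimmer probe sets by 0.08.

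In the lid 7 of 8 members were below 0, with a median of -0.085. Psmd6 read 12.00, 12.10, 12.03 and 12.10 on the scrambled arrays and 11.98, 11.86, 11.89 and 11.93 on the knockdown arrays. The groups were separate by a narrow margin, between scrambled 1 and DOR siRNA 1 (-0.14 ± 0.07, limma adjusted p = 0.37, exact permutation p = 0.029). Psmd7 (-0.16 ± 0.10, with its other 2 probe sets at -0.02 and 0.00), Psmd12 (-0.13 ± 0.07) and Psmd11 (-0.11 ± 0.07), which ties the lid to the core, were lower on average by similar amounts. Psmd14, the enzyme that cuts off the ubiquitin chain, differed by -0.06 ± 0.10. Psmd3 (-0.01 ± 0.12) and Psmd13 (-0.00 ± 0.08) lay near 0, and the sign of these 3 changed with the arrays used. Psmd8 was the lid member above 0 (0.09 ± 0.08).

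Psmd5, Psmd9 and Psmd10 are named with the regulatory particle but are chaperones that help assemble its base and leave the finished complex. They did not lean together. Psmd9 read 8.95, 9.11, 8.83 and 8.88 on the scrambled arrays and 8.94, 8.76, 8.68 and 8.84 on the knockdown arrays, which overlap (-0.14 ± 0.09, limma adjusted p = 0.53). Its other 2 probe sets differed by 0.01 and -0.25. Psmd10, also known as gankyrin, differed by -0.13 ± 0.10 and Psmd5 by 0.13 ± 0.11. Without these 3 genes the median of the regulatory particle was -0.13, as with them.

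In the core the alpha ring showed no shared direction. Its 7 genes had a median difference of 0.045, with 3 below 0 and 4 above it, and limma adjusted p from 0.73 to 0.90. The genes below 0 were Psma2 (-0.07), Psma4 (-0.08) and Psma5 (-0.06), and those above it Psma1 (0.05), Psma3 (0.07), Psma6 (0.05) and Psma7 (0.09). Psma4, which had the smallest p, read 12.27, 12.41, 12.37 and 12.31 on the scrambled arrays and 12.36, 12.25, 12.29 and 12.14 on the knockdown arrays. These ranges overlap (-0.08 ± 0.08, limma adjusted p = 0.73).

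This average covered opposite patterns between cultures taken as pairs by number. The pairing of numbers 1 and 2 is not settled. In deviations from the group means, DOR siRNA 1 correlated more with scrambled 2 (0.265) than with scrambled 1 (0.149). For replicate number 1 all 7 alpha genes were higher in the knockdown culture, by a median of 0.29 log2 units. For numbers 2, 3 and 4, by contrast, 5, 6 and 6 of the 7 were lower, with medians of -0.016, -0.049 and -0.099. Psma7, named after its values were seen, shows it: it read 11.36, 11.53, 11.56 and 11.69 on the scrambled arrays and 11.76, 11.52, 11.52 and 11.72 on the knockdown arrays. Scrambled 1 was the lowest of the 8 arrays and DOR siRNA 1 the highest. Over the core, scrambled 1 held the lowest value for 6 of 17 members and DOR siRNA 1 the highest for 6. When both cultures numbered 1 were left out, a choice made after seeing the data, 7 of 7 alpha genes and 15 of 17 core members were below 0. The core median was then -0.11, and it was -0.084 without DOR siRNA 1 alone. It came closer to 0 without scrambled 4 (-0.037) or DOR siRNA 2 (-0.033), 3 (-0.027) or 4 (-0.036), and with weighted arrays (-0.009). The weights were 1.48 for scrambled 1 and 1.35 for DOR siRNA 1, and ranged from 0.46 (DOR siRNA 2) to 1.51 (DOR siRNA 3). An array with a higher weight counts for more in that fit. The 6 ATPases were all below 0 without the cultures numbered 1 as well, with a median of -0.21. Of the regulatory members, 17 of 20 were below 0 there, with a median of -0.15. No member was called in that fit.

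**Figure D3:**
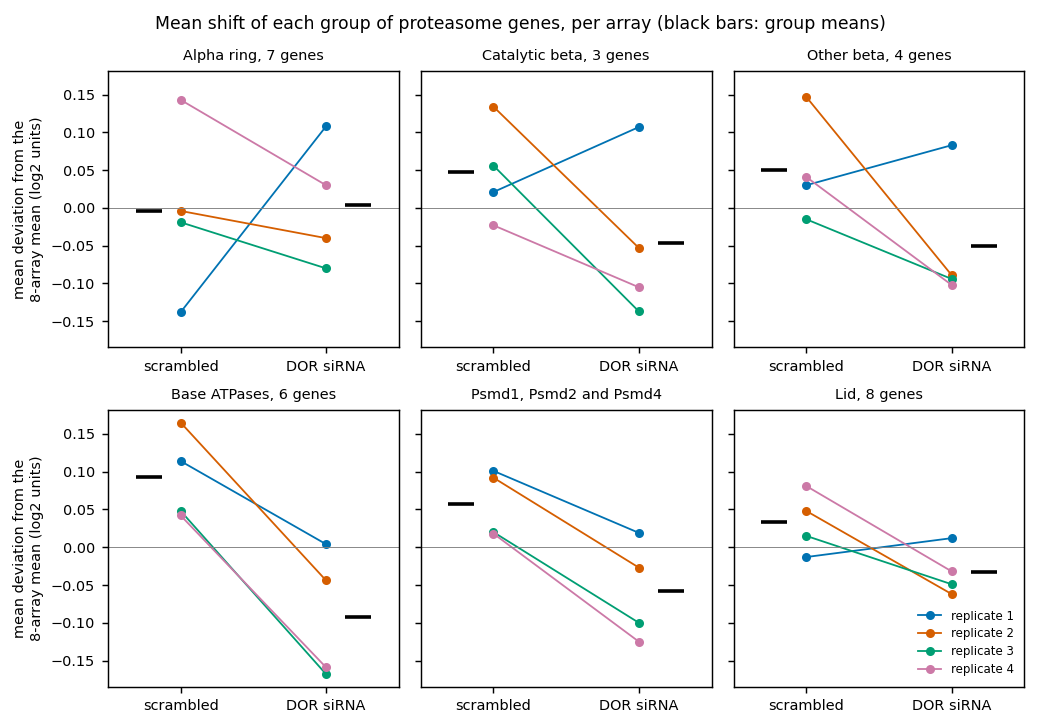
Mean deviation of the genes of each group from their own 8-array means (log2 units), per array, with lines joining cultures of the same replicate number and black bars for group means (n = 4). The line of replicate 1 rises in the alpha ring, by 0.25, and falls in the ATPases, by 0.11, while the lines of replicates 2, 3 and 4 fall in all 6 panels.

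The catalytic subunits Psmb5, Psmb6 and Psmb7 carry the chymotrypsin-like, caspase-like and trypsin-like activities. All 3 were below 0 and none passed the test. Psmb5 read 12.42, 12.58, 12.42 and 12.32 on the scrambled arrays and 12.40, 12.29, 12.24 and 12.21 on the knockdown arrays (-0.15 ± 0.08, limma adjusted p = 0.45, exact permutation p = 0.057). It was lower in each of the 4 pairs, though only by 0.015 in the first, and DOR siRNA 1 lay within the scrambled range.

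Psmb7 read 13.19, 13.15, 13.24 and 13.13 on the scrambled arrays and 13.22, 13.05, 12.94 and 13.04 on the knockdown arrays (-0.12 ± 0.08, limma adjusted p = 0.57). Psmb6 read 11.67, 11.88, 11.72 and 11.70 against 11.91, 11.71, 11.61 and 11.65, with the highest value of all on DOR siRNA 1 (-0.02 ± 0.09, limma adjusted p = 0.95). In both genes 3 of 4 pairs were lower and the pair numbered 1 was higher.

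Of the beta subunits without an active site, 3 of 4 were below 0. Psmb2 read 11.03, 11.17, 11.05 and 11.16 on the scrambled arrays and 11.09, 10.73, 10.87 and 10.96 on the knockdown arrays. DOR siRNA 2 was the lowest, and DOR siRNA 1 again lay within the scrambled range (-0.19 ± 0.09, limma adjusted p = 0.35, exact permutation p = 0.086). Psmb3 differed by -0.16 ± 0.09, Psmb4 by -0.11 ± 0.08 and Psmb1 by 0.05 ± 0.07.

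Psma8, the alpha subunit of the testis, read 3.77 to 4.06 on the 8 arrays, and Psmb11, the thymus subunit, 5.06 to 5.47, both under the median of all values and not shown to be above background. Psmb11 read 5.20, 5.47, 5.17 and 5.25 on the scrambled arrays and 5.08, 5.09, 5.07 and 5.11 on the knockdown arrays, which do not overlap (-0.19 ± 0.08, limma adjusted p = 0.31, exact permutation p = 0.029). Psma8 read 3.98, 3.88, 3.93 and 3.79 against 4.06, 3.77, 3.78 and 4.01 (0.01 ± 0.09, limma adjusted p = 0.97). Psmb10, the inducible counterpart of Psmb7, differed by 0.09 ± 0.08. Without these 3 genes the core median was -0.062.

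Other probe sets of the members gave no call either. The 37 genes were covered by 75 probe sets, of which 0 were called, against 3.22% of all probe sets tested. Of the 75, 53 were below 0, the median was -0.073, and 19 genes had more than one probe set. The groups did not overlap for 9 probe sets, all lower, or 12.0%, against 4.52% of all probe sets with one symbol. Among the 9, those of Psmb11, Psmd9, Psmd13 and the dimmest of Psmc2 had means under the median of all values in both groups. Psmc2 is also counted more than once among them. Probe sets of one gene did not always share a sign: those of Psma3 differed by 0.07 and -0.17, and those of Psmd13 by -0.20 to 0.09.

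**Figure D4:**
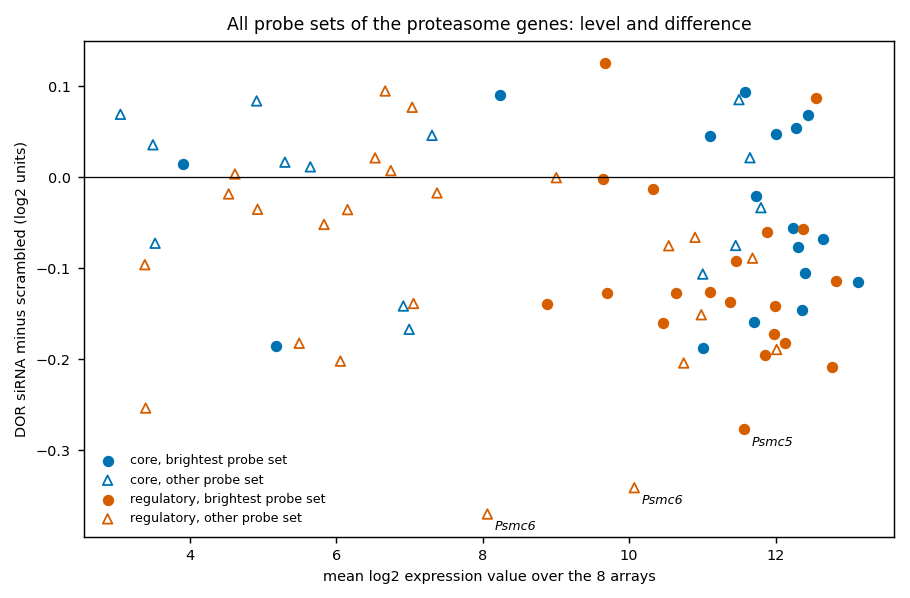
Level (mean log2 value over the 8 arrays) and difference (log2 units, DOR siRNA minus scrambled) of all 75 probe sets of the proteasome genes; filled circles are each gene's brightest probe set, open triangles the others, blue the core and orange the regulatory particle. The lowest points belong to probe sets of Psmc6 (-0.37 and -0.34) and Psmc5 (-0.28), and the bright probe sets beyond 10 log2 units hold both signs only within a band from -0.34 to 0.094.

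The genes around the proteasome were taken from a list of assembly factors, activators, ubiquitin shuttles and regulators, of which 25 were measured. The list was drawn up with earlier results of these data known. Of its genes 1 was called lower and 0 higher, against the 1.45% and 3.11% of all genes. The median difference was -0.004, and 13 (52.0%) were below 0, where 45.1% of all genes were. The one called was Psme4, the activator known as PA200, which caps the core in place of the regulatory particle. It read 11.64, 11.46, 11.59 and 11.65 on the scrambled arrays and 11.19, 11.23, 11.22 and 11.24 on the knockdown arrays, with no overlap and little spread among the latter. Psme4 fell by 0.37 ± 0.07 (limma adjusted p = 0.022), a 1.29-fold decrease. The call was lost without scrambled 1 (0.076) or 3 (0.066) and without DOR siRNA 1 (0.064) or 3 (0.066). It was also lost in the brightest probe set not shared between transcripts (-0.31, limma adjusted p = 0.057) and in the mean over its probe sets (-0.22, 0.082).

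Psme1, a subunit of the interferon-inducible activator, was higher in each of the 4 pairs. It read 9.61, 9.74, 9.43 and 9.54 on the scrambled arrays and 9.95, 10.05, 9.82 and 9.72 on the knockdown arrays, where DOR siRNA 4 lay just below scrambled 2. The difference was 0.31 ± 0.10 (limma adjusted p = 0.12), and it passed in the paired fit (adjusted p = 0.047). The inducible catalytic subunits Psmb8 and Psmb9, which work with that activator, differed by 0.14 ± 0.11 and -0.02 ± 0.09 at levels under the median of all values. The next smallest p belonged to Ubqln2, a ubiquitin shuttle (0.22 ± 0.08, limma adjusted p = 0.18), and Uba6, a ubiquitin-activating enzyme (0.26 ± 0.10, limma adjusted p = 0.21). The groups did not overlap for Ubqln2 and overlapped for Uba6. Nfe2l1, the transcription factor that raises proteasome genes when the protease is blocked, varied widely. It read 11.58, 11.77, 11.72 and 10.94 on the scrambled arrays and 11.09, 11.61, 11.03 and 11.08 on the knockdown arrays, where scrambled 4 was the lowest of all (-0.30 ± 0.18, limma adjusted p = 0.52).

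Some markers of myotube formation differed between the same groups of cultures. Tnnt3, a fast muscle troponin, differed by -0.71 ± 0.16 (limma adjusted p = 0.036) and Myh3, the embryonic myosin heavy chain, by -0.42 ± 0.09 (0.030), while Myod1 differed by -0.05 ± 0.10. Of the 8 myogenic markers 7 were lower on average in the knockdown, and Myf5, an early myogenic factor, differed by 0.45 ± 0.13 (limma adjusted p = 0.080; 0.044 in the paired fit). Myog (-0.31 ± 0.09, limma adjusted p = 0.083), Acta1 (-0.23 ± 0.07, 0.12) and Des (-0.07 ± 0.11, 0.86) did not pass. Ckm, muscle creatine kinase, differed by -0.65 ± 0.23 (limma adjusted p = 0.18; 0.0063 in the paired fit). Among markers of other cell types Cdh1 differed by -0.59 ± 0.16 (limma adjusted p = 0.066; 0.014 in the paired fit), at levels under the median of all values. The part of these markers in the small differences of the proteasome genes was not tested.

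Promoter windows were read for what the genes share in sequence. RefSeq windows of 300 bases (GRCm38.p6), 250 before and 50 after the annotated start, were found for 30 of the 37 members. The first motif searched was the core of the antioxidant response element, TGACNNNGC on both strands, where Nfe2l1 is known to bind. It occurred in 5 of the 30 genes (16.7%), close to the 16.1% of all 14368 genes of the array with a window. The stretches before the start are shown because both catalytic genes with a window, Psmb5 and Psmb6, are among the 5; capitals mark the motif, on the gene's strand.
Psmb5 (chr14:54618014-54618062, minus strand): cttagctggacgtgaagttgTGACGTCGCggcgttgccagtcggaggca
Psmb6 (chr11:70525328-70525356, plus strand): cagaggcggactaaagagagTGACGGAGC
Psmc6 (chr14:45329577-45329625, plus strand): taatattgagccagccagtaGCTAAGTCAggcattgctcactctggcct
Psmd9 (chr5:123228139-123228187, plus strand): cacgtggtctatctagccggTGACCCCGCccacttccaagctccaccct
Psmd12 (chr11:107479278-107479309, plus strand): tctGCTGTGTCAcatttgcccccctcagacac

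Of 3 motifs searched in all, the other 2 were chosen after values of these genes had been seen, and were searched on both strands in the 150 bases before the start. CCAAT, the box bound by NF-Y, came first and occurred in 8 of the 30 members (26.7%), against 30.2% of all genes with a window; it was in 5 of 13 core and 3 of 17 regulatory genes. CTTCCG, a sequence found in sites for ETS-family factors, was tried next, after CCAAT had given these counts and the ATPase windows had been read. Only this exact sequence was counted, and not other forms of such sites. It has the largest count of the 3 among the members, its count is not independent of that choice, and no test is given. It occurred in 12 of 17 regulatory genes (70.6%) and in 3 of 13 core genes (23.1%), against 17.5% of all genes with a window and 23.05% of those at or above the median level. All 6 lid genes with a window held it, as did Psmd1, Psmd2 and Psmd4, and 3 of 5 ATPase genes. The difference between the particles was not tested, and no binding was measured. In the base, the match nearest the start began 28, 24 and 26 bases before it for Psmc1, Psmc2 and Psmd2. For Psmd1, Psmc6 and Psmd4 it began at 72, 99 and 124 bases, and these are not shown. Another window of Psmc2, also not shown, held CTTCCG at 84 bases. The match nearest the start is shown in capitals for the lid genes, all 6 of which held one, and for Psmc1, Psmc2 and Psmd2 of the base.
Psmd6 (chr14:14120964-14121009, minus strand): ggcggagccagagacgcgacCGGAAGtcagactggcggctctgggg
Psmd8 (chr7:29180674-29180709, minus strand): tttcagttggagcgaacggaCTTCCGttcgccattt
Psmd11 (chr11:80428584-80428614, plus strand): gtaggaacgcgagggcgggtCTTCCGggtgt
Psmd12 (chr11:107479491-107479527, plus strand): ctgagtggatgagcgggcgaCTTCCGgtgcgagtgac
Psmd13 (chr7:140882283-140882328, plus strand): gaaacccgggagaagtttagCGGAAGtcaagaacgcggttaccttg
Psmd14 (chr2:61711560-61711605, plus strand): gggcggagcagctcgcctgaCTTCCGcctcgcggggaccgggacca
Psmc1 (chr12:100110154-100110199, plus strand): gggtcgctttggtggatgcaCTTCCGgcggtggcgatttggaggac
Psmc2 (chr5:21786703-21786746, plus strand): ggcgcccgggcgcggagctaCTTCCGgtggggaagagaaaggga
Psmd2 (chr16:20651606-20651651, plus strand): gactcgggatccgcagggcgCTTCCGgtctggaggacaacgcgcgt

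Differences of genes with and without CTTCCG were set side by side without a test. Over all members the 15 that held it had a median difference of -0.11 log2 units, with 13 below 0, and the 15 without it -0.068, with 10 below 0. Among all genes with a window, the 2520 with CTTCCG had a median of 0.007, with 1214 below 0. The 11848 without it had a median of 0.017, with 5241 below 0. In the core the median was -0.076 for the 3 with it and -0.039 for the 10 without. In the regulatory particle the order was the other way, with -0.12 for the 12 that held it and -0.14 for the 5 without. Psmc5, with the largest difference, held neither CTTCCG nor TGACNNNGC where these were searched. The 150 bases before its start are shown for comparison.
Psmc5 (chr11:106256035-106256184, plus strand): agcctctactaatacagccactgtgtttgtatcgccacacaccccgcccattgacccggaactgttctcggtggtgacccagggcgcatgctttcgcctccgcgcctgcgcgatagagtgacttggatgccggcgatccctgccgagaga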

How the data were processed

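The authors deposited RMA values on the log2 scale, per the submitters' processing notes, which name RMA without a version. Per the labels' protocols, 25 ng of total RNA from each of the 8 cultures was amplified before hybridisation. After 64 control probe sets were set aside, 45037 were tested. Platform annotation gave 34945 of the tested probe sets one symbol, 932 several and 9160 none. Genes seen only through several symbols, such as Psme2 and Adrm1, are not analysed here. For each gene the brightest probe set on average was used.

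Differences were fitted in limma 3.58.1 (R 4.3.3; lmFit, eBayes, group alone) with Benjamini-Hochberg adjustment over all probe sets, after the steps had been tested on simulated data. Exact two-sided permutation tests used all 70 arrangements. Cultures with the same number share a letter in their descriptions, and their deviations from the group means correlated at 0.142 to 0.468, so the numbers were used as pairs. DOR siRNA 1 correlated more with scrambled 2 (0.265) than with scrambled 1 (0.149). Scrambled 1 in turn correlated more with DOR siRNA 2 (0.183) than with DOR siRNA 1. The correlations alone therefore do not settle the pairing of numbers 1 and 2.

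Alternatives were the paired fit, another variance prior, cyclic loess, median centring, other choices of probe set, a filter on dim probe sets, array weights and each array left out. Members and lists were chosen with earlier results of these data known. Values per array are given for members with an unadjusted p under 0.05, the catalytic subunits, the smallest p of each role and, chosen after their values were seen, Psmc6 and Psma7. Promoter sequences are from RefSeq. Motifs were searched in turn, and all 3 are reported.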

Additional observations from a re-analysis of the deposited data

Results flagged for a closer look

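In 6 of the 78 groups of 4 arrays examined, 1 array stood apart from the others by more than Dixon's 95% critical value; chance gives about 1 in 20. The values below are the gap to the nearest array as a share of the group's range. Scrambled 4 was the low one for Psmc2 (0.88) and for Psmd3 (0.943). Scrambled 2 was the high one for Psmc3 (0.852) and the low one for Psmd11 (0.958). DOR siRNA 1 was the high one for Psmd10 (0.947) and Psmd4 (0.873).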

How the results depend on the processing

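The direction of 27 of the 37 member differences, and of both particle medians, was kept in every alternative run, 17 for most results. The core median lay between -0.109 and -0.0092 and the regulatory median between -0.165 and -0.103. No core member was called in any alternative. Psmc5 was the 1 regulatory member called, under array weights and under the mean over probe sets. The replicate block, which pairs the cultures by number, called 2827 probe sets and 2 genes of the pathway list (Psme1 and Psme4) and changed no call among the members. Array weights called 2628 probe sets. With both arrays numbered 1 left out, an alternative added after seeing the data, 219 probe sets were called and 0 pathway genes. The pathway count was also 0 under the mean over probe sets and without probe sets shared between transcripts. Leaving out each array in turn gave 608 to 2310 probe sets and 0 to 2 pathway genes.

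The 10 members that changed sign had differences between -0.057 and 0.094 with all arrays. Psma3 was -0.049 under the mean over probe sets and Psmd13 was 0.017 under array weights. Without both arrays numbered 1, Psma1 was -0.036, Psma3 -0.042, Psma6 -0.029, Psma7 -0.0094, Psma8 -0.010 and Psmd3 0.025. Leaving out each array in turn, Psma3 ranged from -0.011 to 0.151, Psma5 from -0.115 to 0.029 and Psma8 from -0.038 to 0.059. Psmb6 ranged from -0.084 to 0.026, Psmd3 from -0.129 to 0.061, Psmd13 from -0.048 to 0.036 and Psmd14 from -0.120 to 0.011. The cause of these shifts was not tested. The number of arrays, 4 a group, limits the precision.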
